A study of Mus musculus with 10 samples.

Results

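The genes described here encode the mitochondrial respiratory chain and ATP synthase. Membership was set by gene symbol: a probe set belonged if its single symbol began with Nduf, Uqcr, Cox4, Cox5, Cox6, Cox7, Cox8 or Atp5, or was Sdha, Sdhb, Sdhc, Sdhd, Cyc1 or Cycs. On the array 101 probe sets met this rule and stood for 73 of the 8251 genes that had a probe set with 1 symbol. Each gene was read from its brightest probe set, by the mean over all arrays. The 73 genes comprised 29 of complex I, 4 of complex II, 9 of complex III with cytochrome c, 15 of complex IV, 14 of complex V and 2 assembly factors of complex I. A further 10 probe sets named a gene of this kind together with other genes and were left out.

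Total RNA from 10 mouse samples had been hybridized to MG_U74Av2 oligonucleotide arrays, and the values given are intensities on a linear scale unless a log2 difference is named. The tumour group held 6 advanced thymic tumours of IkL/L mice, which are homozygous for a hypomorphic mutation of the gene for Ikaros, a zinc-finger factor of lymphocyte development. The IkL/L thymocyte group held 2 unfractionated thymocyte samples from 3-week-old IkL/L mice without a stated tumour, and the wild-type group held 2 such samples from 3-week-old wild-type mice. Both thymocyte groups were on the C57Bl6 background, whereas the labels of the tumours state neither background nor age. Age and tumour state therefore cannot be told apart. Whether each tumour is from a different mouse is not stated either, and p-values measure only the spread between these arrays.

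The respiratory chain passes electrons from NADH (through complex I) and succinate (through complex II) to ubiquinone, then through complex III and cytochrome c to complex IV, which reduces oxygen. Complexes I, III and IV pump protons across the inner mitochondrial membrane, and complex V, the ATP synthase, uses the gradient to make ATP. Most subunits are encoded in the nucleus, as all genes chosen here are, and a few catalytic ones in mitochondrial DNA, whose transcripts were not analysed here. In the thymus, cycling precursors and resting cells differ in their use of mitochondrial respiration.

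The arrays had been scaled alike, with medians between 79.75 in tumour 4 and 113.25 in tumour 6. Ikzf1, the mutated gene, gave 151, 232, 388, 175, 232 and 185 in tumours 1 to 6, 559.5 and 264 on IkL/L thymocyte arrays and 626 and 401 on wild-type arrays, and whether its probes lie in the mutated region is not stated. The summed intensity of 12 T-lineage markers lay between 28656 and 43717 in tumours, 56171 and 60023 in the IkL/L thymocytes and 60598 and 65628 in the wild-type thymocytes. The markers did not move alike. Against wild-type thymocytes Rag1 and Rag2, which rearrange antigen receptor genes, fell, with log2 differences of -1.88 and -3.15 (adjusted p = 0.0155 and 0.0313). Cd4, Cd8a, Cd5 and Cd8b1 had log2 differences of -2.74, -2.11, -1.36 and -2.25 (adjusted p = 0.05001, 0.086, 0.0964 and 0.17). Cd4, Cd8a and Cd5 were lower in every tumour than in all thymocytes, and Cd8b1 in all but tumour 6. Cd8b1 had means of 4607 in tumours and 15405 in wild-type thymocytes. Cd2, Cd3d, Cd3e, Cd3g and Thy1 had log2 differences between -0.35 and -0.02, while Ptcra, the pre-T-cell receptor chain, was higher in every tumour than in all thymocytes (1.36, adjusted p = 0.0698). The summed intensity of 10 myeloid markers lay between 9245 and 19661 in tumours, against 3173 and 3749 in the IkL/L thymocytes and 3091 and 3207 in the wild-type thymocytes. Of 8 thymic epithelial markers the sums were 516 to 1123 in tumours, 1643 and 5528 in the IkL/L thymocytes and 3841 and 5406 in the wild-type thymocytes. Single genes weighed heavily in these sums. Ctsl, the brightest thymic epithelial marker on every array, had 249.5 to 667 in tumours, 860 and 4723 for IkL/L and 3904 and 3029 for wild-type thymocytes. Krt5, Krt14 and Foxn1 were dim and not tested. Apoe, the brightest myeloid marker on every array, had 3670 to 10358 in tumours and 772 to 1800 in thymocytes. For 11 markers of stroma and endothelium the sums were 1866 to 3120 in tumours. They were 1507 and 2187 in the IkL/L thymocytes and 992 and 1610 in the wild-type thymocytes. Of the 8 tested, 3 were called higher in tumours against wild-type and 1 against IkL/L thymocytes (1% and 0.906% of all tested probe sets were). These 8 did not all go 1 way, with 6 and 7 positive log2 differences. Col1a2 had -0.16 from wild-type and -0.81 from IkL/L thymocytes, with every tumour below both IkL/L arrays. Pecam1 had -0.56 from wild-type and 0.52 from IkL/L thymocytes. Against wild-type and IkL/L thymocytes 4 and 5 of 8 tested myeloid markers were called higher. Of 5 tested thymic epithelial markers 4 and 2 were called lower (0.878% and 0.516% of all tested probe sets were). For 4 B-lineage markers the sums were 317 to 636 in tumours. They were 619 and 932 in the IkL/L thymocytes and 582 and 794 in the wild-type thymocytes. Of these markers Blnk had positive log2 differences in tumours, 1.18 from wild-type and 1.51 from IkL/L thymocytes, and the other 3 had negative ones. The samples are bulk RNA, so fewer cells of a type and less RNA per cell cannot be told apart, and the part of cell makeup in the results below was not tested. By the scanner records, tumour 6 shared chip lot 1 with the thymocyte samples and tumours 1 to 5 were on lot 2. Tumours 4 and 6 were hybridized on the same day as the thymocyte samples.

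Of the 73 genes, 65 lay above the array median on at least 2 arrays and were tested, in limma over all 7172 probe sets that passed this filter. The other 8 were dim: Ndufa1, Ndufa12, Ndufc2, Ndufs4, Cox5a, Cox7a1, Cox8a and Atp5j2, with intensities of at most 97.6 on any array. A gene that was dim in every group could not pass, so counts over the 65 do not describe all 73.

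Tumours had higher intensities than IkL/L thymocytes for most respiratory chain genes, by small amounts. Of the 65 tested genes, 59 had a positive log2 difference, against 45.7% of all tested probe sets, and the median log2 difference was 0.37, against -0.05 over all tested probe sets. No gene of the group passed an adjusted p under 0.05 in limma, a criterion that 1.42% of all tested probe sets met in this comparison, 0.906% as higher. The smallest adjusted p was 0.0746, for Atp5md. At an unadjusted p under 0.05, 15 genes were higher in tumours (23.1%, against 9.59% of all tested probe sets) and 1 was lower, Cox6b1 (against 9.5%). In 19 genes every tumour lay above both IkL/L arrays (29.2%, against 10.4%), and in 1 gene every tumour lay below both (against 12.1%).

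Against wild-type thymocytes the tumour differences ran the same way and were smaller. The median log2 difference was 0.22 over the 65 genes and -0.01 over all tested probe sets, and 52 genes had a positive difference, against 49.6% of all tested probe sets. No gene passed the adjusted test in limma, where 1.88% of all tested probe sets did, and the smallest adjusted p was 0.218. At an unadjusted p under 0.05, 2 genes were higher, Atp5g2 and Atp5md (3.08%, against 8.37%), and none was lower (against 7.47%). All tumours lay above both wild-type arrays in 10 genes (15.4%, against 9.16%) and below both in 1, Ndufa2 (against 8.76%).

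IkL/L thymocytes were lower than wild-type thymocytes in most of these genes, again without a call. The median log2 difference was -0.17 over the 65 genes and 0.03 over all tested probe sets, and 18 genes had a positive difference, against 54% of all tested probe sets. No gene passed the adjusted test in limma, which 0.0139% of all tested probe sets passed, and none had an unadjusted p under 0.05, against 3.21%, with 2.05% higher and 1.16% lower. Both IkL/L arrays lay below both wild-type arrays in 30 genes (46.2%, against 18.2% of all tested probe sets) and above both in 4 (6.15%, against 21.2%). The IkL/L arrays enter both this comparison and that of tumours with IkL/L thymocytes, so the 2 sets of differences are not independent.

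The 2 IkL/L arrays were not equally low. IkL/L array 1 was the lowest of all 10 arrays in 27 of the 65 genes (41.5%, against 8.95% of all tested probe sets), and IkL/L array 2 in 11. Without IkL/L array 1 the median log2 difference was 0.27 between tumours and IkL/L thymocytes and -0.11 between IkL/L and wild-type thymocytes, and without IkL/L array 2 it was 0.42 and -0.25. The median kept its sign in both cases. Within single batches, tumours minus IkL/L thymocytes had a median of 0.28 on chip lot 1 (tumour 6 alone) and 0.43 on hybridization day 1 (tumours 4 and 6). It was 0.29 in fluidics module 1 (tumour 5 against IkL/L array 2 alone) and 0.41 in module 4 (tumours 2 and 6 against IkL/L array 1 alone). Tumours minus wild-type thymocytes had 0.18 on chip lot 1 and 0.29 on day 1. The median was 0.30 in fluidics run 1 (tumours 4 and 6 against wild-type array 1 alone) and 0.06 in fluidics module 2 (tumours 1 and 3). These batches share arrays and are not independent.

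**Figure D1:**
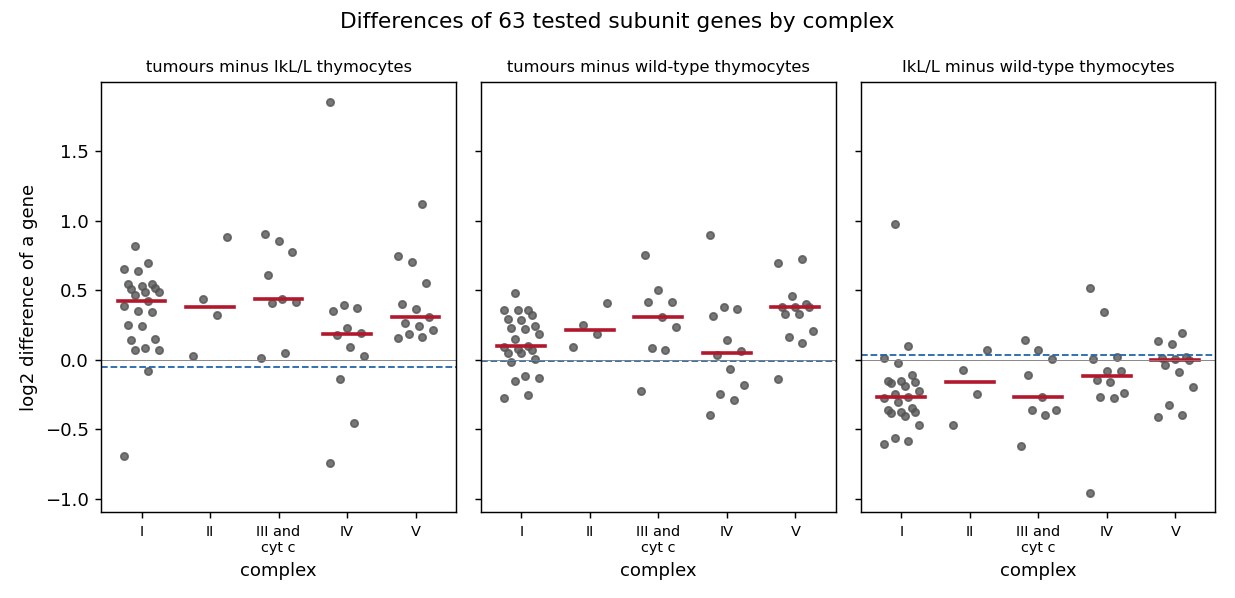
Log2 differences of the 63 tested subunit genes by complex, for tumours minus IkL/L thymocytes, tumours minus wild-type thymocytes and IkL/L minus wild-type thymocytes. Each point is a gene, red bars are medians and dashed lines the median of all 7172 tested probe sets. Complexes I and III have medians of 0.42 and 0.43 against IkL/L thymocytes, and complex V has 0.38 against wild-type thymocytes, where complex IV has 0.04.

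Promoter sequence was read for 1 gene of each complex, chosen after the values were seen. It was the tested gene with an NRF1 or GABPA motif in the window and the smallest unadjusted p in limma between tumours and IkL/L thymocytes. The 4 genes from complexes I, II, III and V are printed, and in each of them all tumour values lay above both IkL/L values. The gene from complex IV, Cox6b1, was lower in tumours. The windows span 300 bases around an annotated transcript start in RefSeq, build GRCm38.p6, and all are on the minus strand. They are chr6:24527477-24527776 for Ndufa5, which has another annotated start too, chr9:50603800-50604099 for Sdhd, chr10:80406772-80407071 for Uqcr11 and chr19:47090598-47090897 for Atp5md. Capitals mark matches to motifs of factors known to bind respiratory chain promoters, and to the core motif of Ikaros.
Ndufa5: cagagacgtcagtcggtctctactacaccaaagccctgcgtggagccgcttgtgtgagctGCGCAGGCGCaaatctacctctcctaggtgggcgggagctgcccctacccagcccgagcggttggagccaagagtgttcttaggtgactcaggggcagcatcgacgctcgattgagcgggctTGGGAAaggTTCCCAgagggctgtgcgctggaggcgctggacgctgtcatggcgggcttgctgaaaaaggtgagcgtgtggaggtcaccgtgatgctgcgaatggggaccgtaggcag
Sdhd: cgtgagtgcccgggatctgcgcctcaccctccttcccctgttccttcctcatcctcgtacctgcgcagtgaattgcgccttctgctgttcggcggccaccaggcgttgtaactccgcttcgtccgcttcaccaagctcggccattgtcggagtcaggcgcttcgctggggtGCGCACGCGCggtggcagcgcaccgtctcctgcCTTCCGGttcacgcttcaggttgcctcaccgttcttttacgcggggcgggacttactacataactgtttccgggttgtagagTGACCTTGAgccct
Uqcr11: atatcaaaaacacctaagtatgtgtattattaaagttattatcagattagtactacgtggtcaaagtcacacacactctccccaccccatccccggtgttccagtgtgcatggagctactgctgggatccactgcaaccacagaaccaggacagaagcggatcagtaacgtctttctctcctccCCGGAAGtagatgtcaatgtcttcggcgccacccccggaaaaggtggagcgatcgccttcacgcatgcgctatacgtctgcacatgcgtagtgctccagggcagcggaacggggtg
Atp5md: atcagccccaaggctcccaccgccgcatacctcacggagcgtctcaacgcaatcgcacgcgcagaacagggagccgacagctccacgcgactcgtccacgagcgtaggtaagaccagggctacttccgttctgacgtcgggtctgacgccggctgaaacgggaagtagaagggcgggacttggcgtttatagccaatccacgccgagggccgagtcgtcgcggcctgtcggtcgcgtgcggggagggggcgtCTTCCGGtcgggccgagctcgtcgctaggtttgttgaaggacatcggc
The Ndufa5 window holds an NRF1 match, GCGCAGGCGC, and on both strands the Ikaros core TGGGAA. The Sdhd window holds an NRF1 match, GCGCACGCGC, a GABPA match on the reverse strand, CTTCCGG, and an ERRA match on the reverse strand, TGACCTTGA. Uqcr11 and Atp5md each hold 1 GABPA match. The window of Cox6b1, a complex IV gene lower in every tumour than on both IkL/L arrays, is not printed. It holds a GABPA match on the reverse strand, CTTCCGG, and the Ikaros core TGGGAA.

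Windows were available for 59 of the 73 genes (64 windows), and 6 motifs were searched on both strands, none of which contains another. The NRF1 motif, GCGCA then any base then GCGC, was present in 12 genes (20.3%), against 5.19% of 27025 genes with a promoter window and 12.5% of 4377 other tested genes. The GABPA motif CCGGAAG was present in 16 genes (27.1%), against 9.93% and 21.7%. The YY1 motif AAGATGGCG was present in 5 genes (8.47%, against 1.64% and 3.72%), and the ERRA motif TCAAGGTCA in Sdhd only of these 59 genes, against 0.466% and 0.297%. The MYC motif CACGTG was present in 5 genes (8.47%, against 8.09% and 12.6%). The Ikaros core TGGGAA was present in 12 genes (20.3%, against 28.3% and 26.9%), of which 5 belong to complex V and 4 to complex I. A match describes letters in the window and does not show that a factor binds there.

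Complex I, the NADH dehydrogenase, had the largest number of tested genes, 25. Against IkL/L thymocytes 23 of them had a positive log2 difference in tumours, with a median of 0.42, and 7 were higher at an unadjusted p under 0.05 (28%, against 9.59% of all tested probe sets). Against wild-type thymocytes the median was 0.10, with 19 positive, and it turned to -0.05 on chip lot 1, where tumour 6 is the only tumour. It was 0.21 without wild-type array 1, 0.03 without wild-type array 2 and 0.05 without tumour 4. IkL/L minus wild-type thymocytes had a median of -0.27, with 22 negative and 16 in which both IkL/L arrays lay below both wild-type arrays (64%, against 18.2%). The median was -0.14 without IkL/L array 1. The 4 tested core subunits, Ndufs1, Ndufs3, Ndufv1 and Ndufv2, had medians of 0.36 in tumours minus IkL/L thymocytes and 0.23 in tumours minus wild-type thymocytes, and the 21 accessory subunits had 0.46 and 0.09.

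Ndufb8, an accessory subunit of the membrane arm (chromosome 19), had intensities of 1621, 1848, 1814, 2878, 1861 and 1597 in tumours 1 to 6, 1087 and 1257 in the IkL/L thymocytes and 1532 and 1499.6 in the wild-type thymocytes. All 3 groups lay apart, with tumours highest and IkL/L thymocytes lowest, and tumour 4 stood far above the other tumours. The log2 difference was 0.70 ± 0.24 from IkL/L thymocytes (SE, adjusted p = 0.166) and 0.32 ± 0.24 from wild-type thymocytes (adjusted p = 0.577). Ndufb9, another accessory subunit of the membrane arm, had 728, 1442, 912, 864, 1283 and 917 in tumours, 482 and 659.8 for IkL/L and 997 and 722 for wild-type thymocytes. Tumours and wild-type thymocytes overlapped here, and tumours 2 and 5 were the highest. Its log2 difference from IkL/L thymocytes was 0.82 ± 0.29 (adjusted p = 0.175).

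Ndufa7, an accessory subunit, showed the pattern in which the IkL/L arrays were low and the other groups overlapped. It gave 4416, 4864, 4388, 5897, 3672 and 4097 in tumours, 2838 and 3351 on IkL/L thymocyte arrays and 4697 and 4425 on wild-type arrays. The log2 difference of tumours was 0.55 ± 0.22 from IkL/L thymocytes (adjusted p = 0.215) and -0.02 ± 0.22 from wild-type thymocytes. Ndufv3, an accessory subunit of the NADH-binding module, behaved alike, with 299.8, 300.2, 336, 492, 248 and 268 in tumours, 207 and 195 in the IkL/L thymocytes and 275 and 340.4 in the wild-type thymocytes. Its log2 differences were 0.65 ± 0.26 from IkL/L thymocytes and 0.04 ± 0.26 from wild-type thymocytes. Ndufa5, whose promoter window is shown above, had 1290.0, 1917, 1295, 1363, 1455 and 1479 in tumours, against 955 and 1124 in IkL/L thymocytes, where no tumour overlapped, and 1385 and 1126 in wild-type thymocytes, where the groups overlapped.

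Among the core subunits, Ndufv1, which carries the NADH-binding site, had 3938, 3991, 4559, 6738, 4565 and 3549 in tumours, 3276 and 3003 for IkL/L and 3594 and 3380.3 for wild-type thymocytes. Every tumour exceeded both IkL/L arrays, while tumour 6 lay between the wild-type arrays. Ndufs1, the largest core subunit of the NADH module, differed little, by 0.07 ± 0.20 from IkL/L thymocytes and 0.08 ± 0.20 from wild-type thymocytes on the log2 scale. Ndufa10, an accessory subunit of the membrane arm, was an exception in direction. It had 142, 133, 192, 105, 141 and 243 in tumours, 209.5 and 293 on IkL/L thymocyte arrays and 84.1 and 188 on wild-type arrays, so both IkL/L arrays lay above both wild-type arrays and the tumours overlapped with each thymocyte group. Its log2 difference of tumours from IkL/L thymocytes was -0.69 ± 0.37, with an adjusted p of 0.335, and that of IkL/L from wild-type thymocytes was 0.98 ± 0.45. The second of these was 0.40 without wild-type array 1 and 1.56 without wild-type array 2.

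The assembly factor Ndufaf1, which is needed to build the membrane arm, had 315, 359, 276, 322, 281 and 481 in tumours, 179.7 and 201 in the IkL/L thymocytes and 248 and 308 in the wild-type thymocytes. Every tumour was above both IkL/L arrays, by a log2 difference of 0.81 ± 0.24 (adjusted p = 0.124), and both IkL/L arrays were below both wild-type arrays. Ndufaf4, another complex I assembly factor, ran differently, with 155, 98.4, 122, 154, 99.5 and 105 in tumours, 105 and 141 for IkL/L and 85.6 and 81.5 for wild-type thymocytes. Wild-type thymocytes were lowest here, and the log2 difference of tumours was 0.52 ± 0.25 from wild-type (adjusted p = 0.352) and -0.02 ± 0.25 from IkL/L thymocytes.

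Complex II, the succinate dehydrogenase, has 4 subunits and all were tested. The membrane anchor Sdhd (chromosome 9) had 1592, 2764, 2432, 3816, 2418 and 2319 in tumours, 1565 and 1155 on IkL/L thymocyte arrays and 1646 and 2110.2 on wild-type arrays. Tumour 1 was barely above the higher IkL/L array, and tumour 4 was the highest. The log2 difference was 0.88 ± 0.30 from IkL/L thymocytes (adjusted p = 0.161) and 0.41 ± 0.30 from wild-type thymocytes. The other anchor, Sdhc, had 1219, 1502, 1326, 1377, 1230.4 and 1635 in tumours, 1102 and 1101 in the IkL/L thymocytes and 1138 and 1179 in the wild-type thymocytes. The 3 groups did not overlap, with log2 differences of 0.32 ± 0.19 from IkL/L and 0.25 ± 0.19 from wild-type thymocytes (adjusted p = 0.374 and 0.583). Sdhb, the iron-sulfur subunit, had log2 differences of 0.43 ± 0.25 and 0.19 ± 0.25 in these comparisons, and Sdha, the flavoprotein that holds the active site, 0.03 ± 0.24 and 0.09 ± 0.24. Both overlapped between tumours and each thymocyte group.

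In complex III with cytochrome c all 9 tested genes had a positive log2 difference between tumours and IkL/L thymocytes, with a median of 0.43, and 3 were higher at an unadjusted p under 0.05 (33.3%, against 9.59% of all tested probe sets). Those 3 are small supernumerary subunits, Uqcrq, Uqcr10 and Uqcr11. Uqcrq (chromosome 11) had 5329, 5503, 4965, 7743, 5505 and 5132 in tumours, 3338 and 3250.1 for IkL/L and 4508 and 3977 for wild-type thymocytes. The 3 groups were separate in the order tumours, wild-type thymocytes, IkL/L thymocytes from high to low, and tumour 4 was far above the other tumours. The log2 difference was 0.77 ± 0.21 from IkL/L thymocytes (adjusted p = 0.0981), 0.41 ± 0.21 from wild-type thymocytes (adjusted p = 0.394) and -0.36 ± 0.26 between IkL/L and wild-type thymocytes.

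Uqcr11 (chromosome 10) had 1704, 1594, 1282, 1987, 1372 and 940.4 in tumours, 818 and 781 on IkL/L thymocyte arrays and 1184 and 1270.3 on wild-type arrays. Tumour 6 was the lowest tumour and lay below both wild-type arrays, but above both IkL/L arrays. The log2 difference from IkL/L thymocytes was 0.85 ± 0.27 (adjusted p = 0.137), and without tumour 6 it was 0.97 (adjusted p = 0.0385), the sole call of any gene of the group among the alternatives run. In that fit 335 of all tested probe sets were called, against 102 with all arrays. Uqcr10 had 2825, 3424, 2355, 5115, 2198 and 2854 in tumours, 1504 and 1719 in the IkL/L thymocytes and 2189.9 and 2055 in the wild-type thymocytes, and its groups were separate, with a log2 difference of 0.90 ± 0.30 from IkL/L thymocytes (adjusted p = 0.153).

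Cyc1, the cytochrome c1 subunit that carries a haem, had 4554, 6712, 4039.9, 7012, 6425 and 5129.5 in tumours, 4432 and 3916 for IkL/L and 4054 and 4246 for wild-type thymocytes. Tumours 2, 4 and 5 were high and tumours 1, 3 and 6 nearer to the thymocytes. Another tested probe set of Cyc1 had the opposite sign, with a log2 difference of -0.63 from IkL/L thymocytes, so the direction for Cyc1 is uncertain. Of the 7 genes of the group with several tested probe sets, 4 had probe sets of both signs in each comparison. Cycs, the mobile electron carrier cytochrome c, had 154, 104, 123, 282, 194 and 237 in tumours, 125 and 100.5 on IkL/L thymocyte arrays and 131 and 79.1 on wild-type arrays. Tumours 4 and 6 were the highest, tumours 2 and 3 lay within the range of the thymocyte arrays, and the log2 differences were 0.61 ± 0.39 from IkL/L and 0.75 ± 0.39 from wild-type thymocytes (adjusted p = 0.402 and 0.389). The difference of Cycs from wild-type thymocytes was 1.12 without wild-type array 1 and 0.38 without wild-type array 2.

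**Figure D2:**
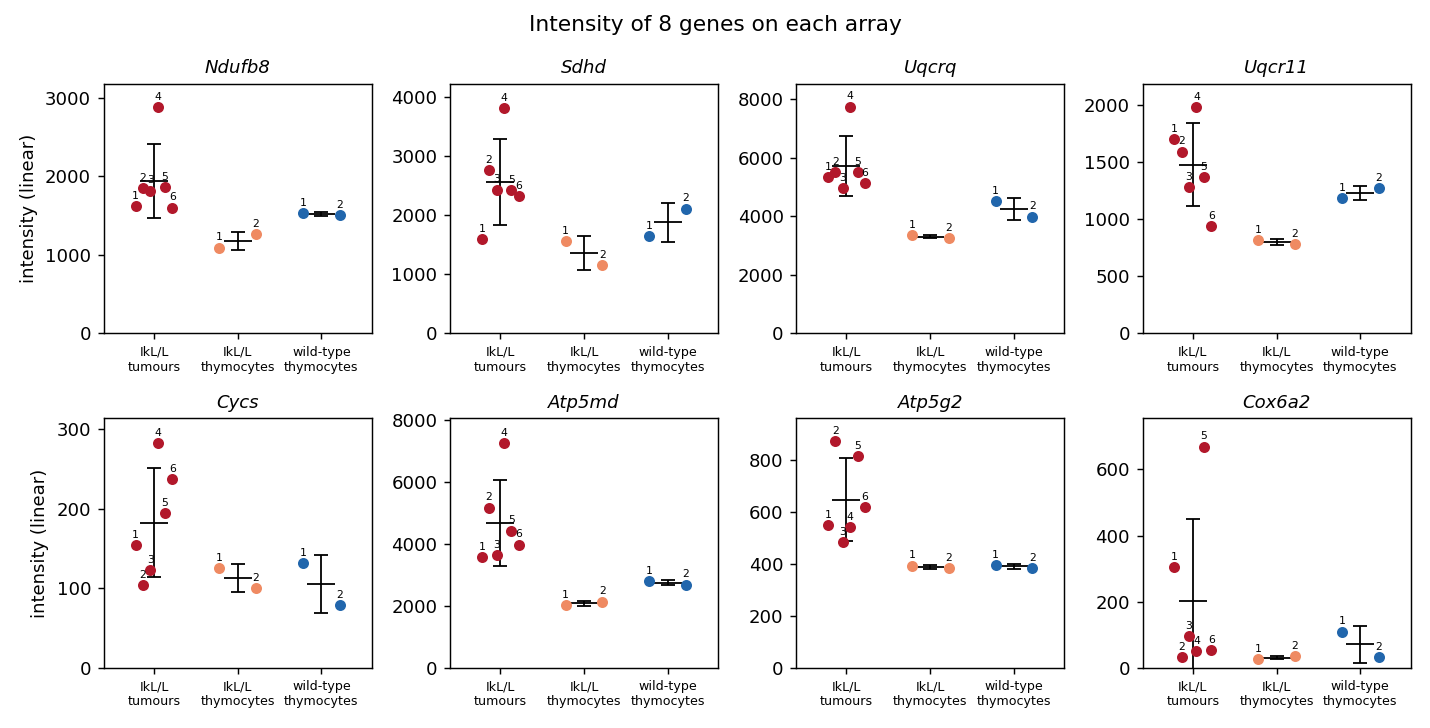
Intensity, on a linear axis from 0, of 8 genes on each array, with the mean and SD of each group; numbers beside points are replicate numbers, and the lower error bar of Cox6a2 in tumours is cut by the axis. In Ndufb8, Uqcrq and Atp5md tumour 4 is the highest point and both IkL/L points lie below both wild-type points; Cox6a2 is high in tumours 5 and 1 only.

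In complex IV, the cytochrome c oxidase, the median log2 difference over the 12 tested genes was 0.19 between tumours and IkL/L thymocytes, 0.04 between tumours and wild-type thymocytes and -0.12 between IkL/L and wild-type thymocytes. The 12 genes include the muscle or testis forms Cox6a2, Cox6b2, Cox8b and Cox8c. Cox4i1 and Cox6b1 had mean intensities of 188 and 150. Cox5b, Cox6a1, Cox6c, Cox7a2, Cox7a2l and Cox7b had mean intensities between 1212 and 7670. Their log2 differences in tumours were 0.18 to 0.40 from IkL/L and -0.06 to 0.38 from wild-type thymocytes. Of the 12 genes, 3 had a negative difference from IkL/L and 5 from wild-type thymocytes. The medians of the 12 moved with single arrays. Tumours minus wild-type thymocytes gave -0.09 without wild-type array 1, 0.01 without tumour 1, 0.00 without tumour 6 and 0.26 on chip lot 1. Tumours minus IkL/L thymocytes gave 0.06 without IkL/L array 1 and 0.32 without IkL/L array 2. IkL/L minus wild-type thymocytes gave -0.02 without IkL/L array 1, -0.24 without IkL/L array 2 and -0.06 without wild-type array 1. Against IkL/L thymocytes no gene was higher at an unadjusted p under 0.05 (against 9.59% of all tested probe sets), and 1 was lower (against 9.5%), Cox6b1, which encodes a subunit on the intermembrane side. Cox6b1 had 145, 123, 90.2, 133, 79.5 and 200 in tumours, 210.0 and 201 in the IkL/L thymocytes and 154 and 169 in the wild-type thymocytes. All tumours lay below both IkL/L arrays, tumour 6 by less than 1 unit of intensity, and the log2 difference was -0.74 ± 0.32 (adjusted p = 0.245). Cox5b had 2509.9, 2453, 2369.8, 3372, 2592 and 3136 in tumours, 2028 and 2099 for IkL/L and 2226 and 2139.6 for wild-type thymocytes. Its 3 groups did not overlap, but the log2 differences were small, 0.40 ± 0.20 from IkL/L and 0.31 ± 0.20 from wild-type thymocytes (adjusted p = 0.316 and 0.503).

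Several complex IV subunits exist in a ubiquitous form and in a form of muscle or testis. The ubiquitous Cox6a1, Cox7a2 and Cox7b had log2 differences of tumours from wild-type thymocytes of -0.06 ± 0.25, 0.03 ± 0.20 and 0.37 ± 0.24. Cox7a2l, which acts in joining complexes into supercomplexes, had 0.14 ± 0.22. Cox4i1 had -0.29 ± 0.41, with tumour 1 at 71.3 and the other tumours between 172 and 249. Its sign turned within chip lot 1, hybridization day 1 and fluidics run 1, and the other tested probe set of Cox4i1 had a log2 difference of -0.43.

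Cox6a2, the heart and skeletal muscle form of subunit 6a, varied more between tumours than any other tested gene of the group. It had 304, 33.2, 95.8, 50.8, 669 and 52.9 in tumours 1 to 6, 26.7 and 34.5 on IkL/L thymocyte arrays and 109.6 and 31.7 on wild-type arrays. Tumours 5 and 1 were high, wild-type array 1 and tumour 3 were intermediate and the other arrays were dim. The log2 difference was 1.85 ± 1.04 from IkL/L thymocytes (adjusted p = 0.353) and 0.90 ± 1.04 from wild-type thymocytes. Of 16 muscle markers, all measured and 7 of them tested, the summed intensity was 1515, 5778, 910, 1417, 3654 and 9085 in tumours 1 to 6, 1336 and 1444 in the IkL/L thymocytes and 972 and 1049 in the wild-type thymocytes. Tnnt1, a slow-muscle troponin, made up more than the other markers together in tumours 2, 4, 5 and 6 but not on the remaining arrays, with 732, 4998, 273, 793, 3038 and 7749.7 in tumours, 234 and 132 in the IkL/L thymocytes and 307 and 201 in the wild-type thymocytes. Of the 16 markers, 6 were at or below 16, the value to which dim intensities were raised, in at least 4 of the 6 tumours (Acta1, Mb, Myh1, Myh2, Myh6 and Tnni2). Another 9 were above it in all tumours, among them Actc1 (81.6 to 222), Ckm (54.2 to 208) and Mylpf (91.1 to 143). Cox6a2 was highest in tumours 5 and 1, and Tnnt1 in tumours 6 and 2. Tumour 5 had Tnnt1 at 3038, against 132 to 307 in thymocytes. The part of muscle RNA in the Cox6a2 values was not tested.

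The other tissue-restricted forms gave no such pattern. Cox8b, the muscle form of subunit 8, had 241, 261, 175, 171, 279 and 327 in tumours, 219.9 and 244 for IkL/L and 259.7 and 302 for wild-type thymocytes, with overlap of tumours and each thymocyte group. Cox8c and Cox6b2, forms known from testis, had log2 differences of tumours from wild-type thymocytes of 0.06 ± 0.36 and -0.18 ± 0.39. Cox7a1, the muscle form of subunit 7a, stayed at or below 51.4 on all arrays, and the ubiquitous Cox8a at or below 22.9, so no difference could be measured for these probe sets.

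Complex V, the ATP synthase, was the complex whose tumour values differed from both thymocyte groups by like amounts. The median log2 difference over its 13 tested genes was 0.31 between tumours and IkL/L thymocytes, with all 13 positive, 0.38 between tumours and wild-type thymocytes, with 12 positive, and -0.01 between IkL/L and wild-type thymocytes. For Atp5d, counted as positive, the probe set used had log2 differences of 0.21 from IkL/L and 0.40 from wild-type thymocytes. Another tested probe set of Atp5d had -0.25 and -0.15, and a further one 0.09 and -0.03, so the direction for Atp5d is uncertain. Whether complex V differs from the other complexes was not tested. Atp5md (chromosome 19), a small membrane subunit needed for dimers of the synthase, had 3584, 5174, 3635, 7267, 4429 and 3979 in tumours, 2026 and 2137 on IkL/L thymocyte arrays and 2806 and 2687 on wild-type arrays. The groups were separate, and tumour 4 was the highest. The log2 difference was 1.12 ± 0.28 from IkL/L thymocytes (a 2.18-fold difference, adjusted p = 0.0746) and 0.72 ± 0.28 from wild-type thymocytes (1.65-fold, adjusted p = 0.237).

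Atp5g2, 1 of the genes for subunit c of the membrane rotor (chromosome 15), had 551, 873, 484, 542, 816 and 618 in tumours, 394 and 383 in the IkL/L thymocytes and 396 and 384 in the wild-type thymocytes. The thymocyte groups overlapped, and every tumour lay above both, tumours 2 and 5 the farthest. The log2 difference was 0.70 ± 0.26 from IkL/L and 0.70 ± 0.26 from wild-type thymocytes (adjusted p = 0.182 and 0.218). Atp5g1, another gene for the same subunit, had 109.5, 79.7, 87, 91.2, 84.2 and 155 in tumours, 72.8 and 106 for IkL/L and 64.6 and 119 for wild-type thymocytes. Tumours and thymocytes overlapped. The names of the probe sets used for Atp5md and Atp5g2 end in _f_at, which marks probes that can also bind related transcripts. Names ending in _f_at, _s_at, _g_at, _r_at or _i_at, not all of which mark this, were used for 18 of the 65 tested genes.

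Atp5e, the epsilon subunit of the central stalk, had 2083, 2674, 2834, 2776, 2578 and 2750.5 in tumours, 2034 and 1190.3 on IkL/L thymocyte arrays and 2248 and 1912 on wild-type arrays. The IkL/L arrays differed widely, and only array 2 was far below the tumours. The log2 difference from IkL/L thymocytes was 0.74 ± 0.24 (adjusted p = 0.138), and it was 0.36 without IkL/L array 2. Atp5l, subunit g of the membrane part, had 4452, 5822, 4433, 7355, 4862 and 3436 in tumours, 3113 and 3631 in the IkL/L thymocytes and 4017 and 3183 in the wild-type thymocytes, and tumour 6 lay among the thymocyte arrays. Atp5o, the subunit that joins the stalk to the catalytic head, had 2253, 3088, 2535, 5109, 2352 and 1954 in tumours, 2273 and 2538 for IkL/L and 3402 and 2668 for wild-type thymocytes. Tumour 4 was the highest of all arrays and tumour 6 the lowest, so the group means were close, with log2 differences of 0.18 ± 0.33 from IkL/L and -0.14 ± 0.33 from wild-type thymocytes. Atp5a1 and Atp5c1, for the alpha and gamma subunits of the catalytic part, had log2 differences of 0.12 ± 0.20 and 0.33 ± 0.21 from wild-type thymocytes.

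**Figure D3:**
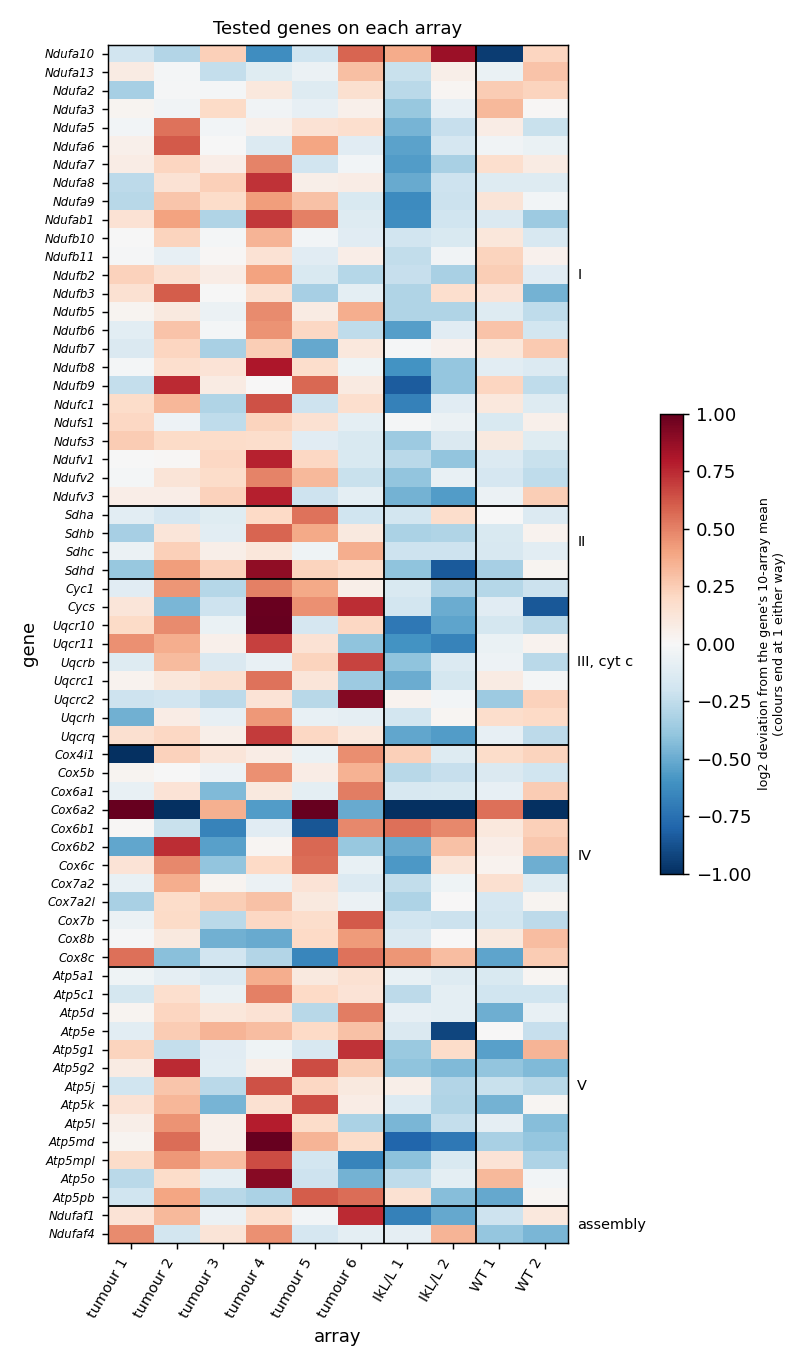
Log2 deviation of each of the 65 tested genes (down the page, by complex) from its own mean over the 10 arrays, for 6 tumours, 2 IkL/L and 2 wild-type thymocyte arrays (across). Red is above and blue below the mean, and colours end at 1 either way; tumour 4 is mostly red in complexes I, III and V, and IkL/L array 1 mostly blue.

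The tumours were not alike. Tumour 4 had the highest value of all 10 arrays in 32 of the 65 genes (49.2%, against 15% of all tested probe sets), and in 34 among the tumours alone (52.3%, against 17.8%). Among the 6 tumours it was the highest in 16 of 25 genes of complex I, 7 of 9 of complex III with cytochrome c and 7 of 13 of complex V, but in 2 of 12 of complex IV, where tumour 6 led in 5. After quantile normalization tumour 4 was the highest of 10 arrays in 27 genes, against 16.3% of all tested probe sets. Tumour 4 had the lowest median intensity of all arrays, the lowest myeloid marker sum among the tumours (9245) and the lowest sum of 2 measured erythroid markers of all arrays (1375, against 7692 to 22952 in the other tumours and 7520 to 10406 in thymocytes). The part of these in its high values was not tested. Without tumour 4 the median log2 difference over the 65 genes was 0.33 from IkL/L and 0.19 from wild-type thymocytes.

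The median deviation of the 65 genes from their 10-array means was -0.01, 0.19, -0.02, 0.29, 0.12 and 0.09 on the log2 scale in tumours 1 to 6, -0.30 and -0.15 in the IkL/L thymocytes and -0.08 and -0.11 in the wild-type thymocytes. Every tumour was thus above every thymocyte array, while over all tested probe sets the same measure lay between -0.06 and 0.05. This separation was not particular to the 65 genes. The mitochondrial ribosome, citrate cycle and electron delivery lists described below had their lowest tumours at -0.01, -0.03 and -0.01. Their highest thymocyte arrays were at -0.11, -0.09 and -0.13. In the list for biogenesis and assembly tumours and IkL/L thymocytes overlapped. Over the 65 genes tumours 1 and 3 were nearest to the thymocytes. In complex III tumour 4 reached 0.55, and the others lay between -0.08 and 0.20. The IkL/L arrays were at -0.40 and -0.33 and the wild-type arrays at -0.08 and -0.22. No tumour overlapped with thymocytes there, but tumour 3 (-0.0835) and wild-type array 1 (-0.0839) were nearly equal. In complex V the tumours lay between -0.10 and 0.36, against -0.26 and -0.24 in IkL/L and -0.23 and -0.20 in wild-type thymocytes, with no overlap. In complex IV the tumours overlapped with both thymocyte groups.

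**Figure D4:**
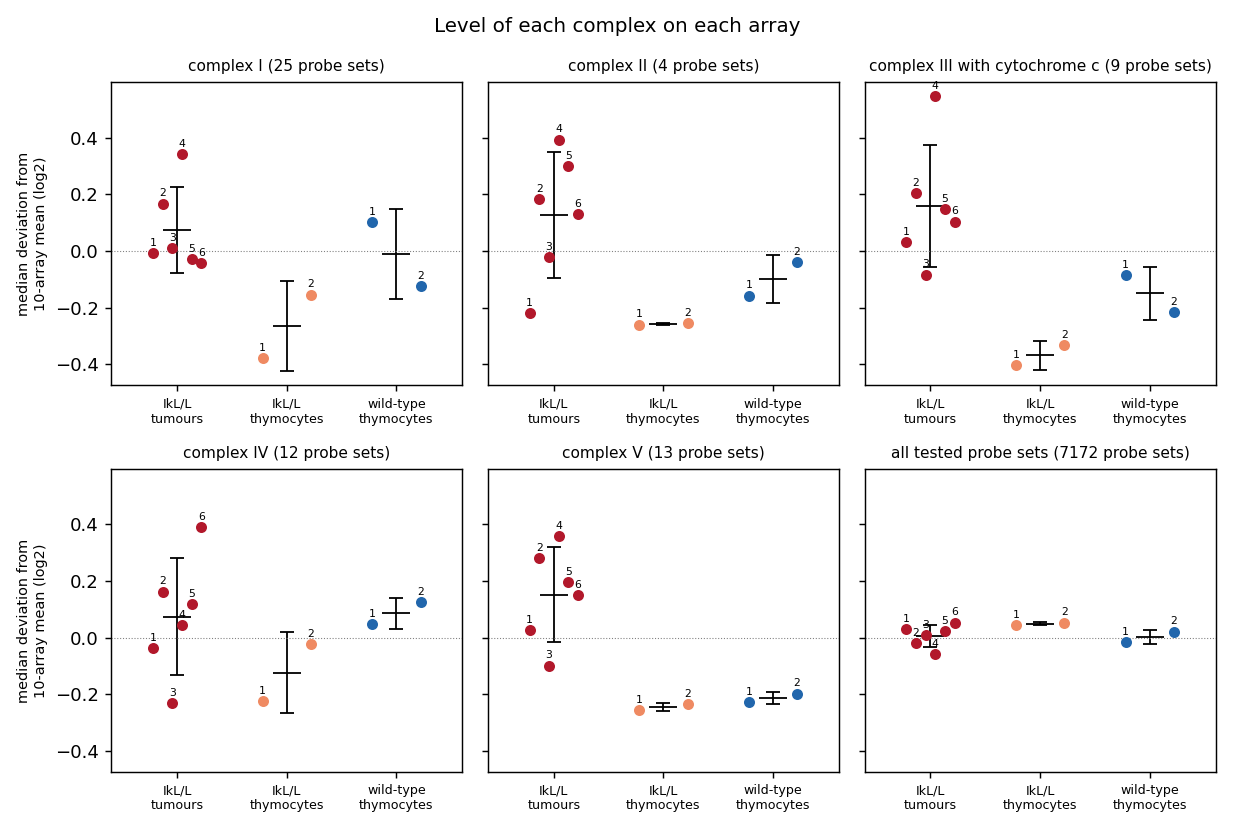
Median log2 deviation of the tested genes of each complex from their own 10-array means, for each array, with the mean and SD of each group; numbers are replicate numbers. In complexes III and V the 6 tumours lie above all thymocyte arrays, in complex III with tumour 3 and wild-type array 1 nearly equal. In complex V the tumours lie between -0.10 and 0.36. In complex IV the tumours overlap with both thymocyte groups, and all tested probe sets stay between -0.06 and 0.05.

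Across the 6 tumours the genes varied together to a small degree, and so did the genes for mitochondrial ribosomal proteins. The median Pearson correlation between pairs was 0.20 over the 65 genes, with 65% of pairs positive. It was 0.24 over 56 tested genes for mitochondrial ribosomal proteins, with 66.7% positive, and 0.01 over all tested probe sets, with 50.4% positive. By complex it was 0.26 in complex I, 0.315 in complex II, 0.39 in complex III with cytochrome c, 0.20 in complex V and 0.14 in complex IV. These are descriptions over 6 points that share arrays, scaling and, in part, batch. The gene that followed the median of the others most closely was Atp5j, a stalk subunit of the synthase (r = 0.985), then Atp5md (0.964), Cyc1 (0.926) and Atp5c1 (0.925). The lowest values were those of Ndufa3 (-0.692) and Ndufa10 (-0.652), both of complex I, and Cox8c (-0.508).

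The genes that supply and build the chain were read from 4 lists. Of 61 genes for mitochondrial ribosomal proteins, which make the subunits encoded in mitochondrial DNA, 56 were tested. Their medians were close to those of the respiratory chain genes, 0.37 from IkL/L and 0.26 from wild-type thymocytes, 48 of 56 were positive in each, and none passed the adjusted test in limma, while at an unadjusted p under 0.05 10 were higher against IkL/L thymocytes (17.9%, against 9.59% of all tested probe sets). Against wild-type thymocytes 5 were higher (8.93%, near the 8.37% of all tested probe sets) and 1 was lower, Mrpl58. Mrps34, of the small subunit, had 1039, 1054, 1123, 1273, 1238 and 619 in tumours, 492 and 455 on IkL/L thymocyte arrays and 530.2 and 483 on wild-type arrays. Tumour 6 was the lowest tumour but still above all thymocyte arrays, and the adjusted p was 0.0739 and 0.0977. Mrpl3, of the large subunit, had a log2 difference of -0.47 ± 0.25 from IkL/L thymocytes (adjusted p = 0.339). From wild-type thymocytes it was 0.17 ± 0.25.

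Of the 37 listed genes for biogenesis and assembly, 15 were tested, with medians of 0.02 from IkL/L and 0.11 from wild-type thymocytes. Chchd3, which encodes a protein that shapes the cristae where the chain sits, was the 1 called gene in either comparison. It had 2408, 2757, 2899, 3080.2, 2885 and 2770.4 in tumours, 1112 and 1294 in the IkL/L thymocytes and 1133 and 1286 in the wild-type thymocytes. Tumours rose above both thymocyte groups by 1.22 ± 0.18 (adjusted p = 0.0135) and 1.21 ± 0.18 (adjusted p = 0.0114) on the log2 scale. Lrpprc, which stabilises mitochondrial mRNA, had a log2 difference of 1.03 ± 0.32 from IkL/L thymocytes (adjusted p = 0.136), and Pprc1, a coactivator of NRF1, 0.88 ± 0.27 from wild-type thymocytes (adjusted p = 0.156). Gabpa, whose motif was searched above, had 183, 161, 188, 248, 202 and 217 in tumours, 299.9 and 302 for IkL/L and 256 and 196 for wild-type thymocytes, lower in every tumour than in both IkL/L arrays (adjusted p = 0.175).

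Of 20 genes for the citrate cycle and pyruvate dehydrogenase 16 were tested, with medians of 0.29 from IkL/L and 0.19 from wild-type thymocytes. Suclg2, a subunit of the GTP-forming succinyl-CoA ligase, had 721, 688, 741, 888, 742 and 547 in tumours, 358 and 329.6 on IkL/L thymocyte arrays and 432 and 366 on wild-type arrays. It rose in tumours against IkL/L thymocytes, by 1.06 ± 0.21 (adjusted p = 0.0413), as the only 1 of the 16 that passed, and was 0.85 ± 0.21 from wild-type thymocytes (adjusted p = 0.0842). Dld, a subunit shared by pyruvate and oxoglutarate dehydrogenase, had a log2 difference of 0.90 ± 0.20 from wild-type thymocytes (adjusted p = 0.0559), and Fh1, the fumarase, 0.74 ± 0.23 from IkL/L thymocytes (adjusted p = 0.135). Of the 16, 4 had a negative difference from wild-type thymocytes, among them Pdhb, at -0.77 ± 0.46 (adjusted p = 0.475). Pdhb was 0.26 ± 0.46 from IkL/L thymocytes, and -1.03 ± 0.57 between IkL/L and wild-type thymocytes. Of 19 genes for electron delivery, carriers and uncoupling 13 were tested, with medians of 0.29 from IkL/L and 0.26 from wild-type thymocytes. None passed in limma, while at an unadjusted p under 0.05 5 were higher (38.5%, against 9.59% of all tested probe sets) and 1 lower (7.69%, against 9.5%) in tumours minus IkL/L thymocytes. In tumours minus wild-type thymocytes 3 were higher (23.1%, against 8.37%). The higher ones in tumours minus IkL/L thymocytes included Slc25a4, an ADP/ATP carrier (log2 difference 0.69 ± 0.19), Etfb, which feeds electrons from fatty acid oxidation (0.94 ± 0.25), and Sod2, the mitochondrial superoxide dismutase (0.87 ± 0.26).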

How the data were processed

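The deposited table held intensities of 12488 probe sets, 66 of them controls. Per the deposited values, the mean after trimming 2% at each end was near 300 on every array, so intensities were used unscaled. The software that computed them is not given in the sources used here. Probe sets were named from the platform annotation, and all 73 symbols were unchanged in the RefSeq gene table (GRCm38.p6). A floor of 16, the 20th percentile over the whole table, was set before taking log2. Probe sets above the array median on at least 2 arrays were tested (7172). The model was fitted over 10 arrays in limma 3.58.1 (R 4.3.3) with a mean for each group and eBayes, on 7 residual degrees of freedom. P-values were two-sided and adjusted by the Benjamini-Hochberg method over all tested probe sets. The small number of arrays limits the precision. Chip lot, day, fluidics run (hybridizations within 10 minutes of each other) and module were read from scanner records.

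The members, gene lists and marker lists were chosen with earlier results of these data known. Genes were named by rule: any called member, per complex the 4 tested members with the smallest unadjusted p and the one with the widest tumour range, the paralogue families of complexes IV and V, complex II, Cyc1 and Cycs, and from each further list the 2 tested genes with the smallest unadjusted p per comparison. Of those chosen by this rule from the further lists, Tfb2m, Vdac2, Coq7 and Mrpl2 are not described above. Ndufa5, Ndufv1, Ndufs1, Ndufa3, Cox6c, Atp5a1, Atp5c1, Atp5j and Uqcrc2 were named after their values were seen. The fit was tested on simulated data. The columns of the table all belonged to the 10 samples, and no pair of arrays held identical values.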

Additional observations from a re-analysis of the deposited data

Results flagged for a closer look

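Values of the 6 tumours were compared, within each of the 65 tested genes and for the median deviation of all of them and of each complex and the assembly factors, for a single array far from the others, by Dixon's ratio of gap to range at its 95% critical value. Of 72 items tested, 6 passed, and chance gives about 1 in 20. Ndufb8 in tumour 4, at 2878.5, stood above the other tumours, which lay between 1597.1 and 1860.7. Uqcrq in tumour 4, at 7743, stood above the others, between 4964.6 and 5504.6. Cox4i1 in tumour 1, at 71.3, lay below the others, between 172.1 and 248.6, and Atp5e in tumour 1, at 2083.4, lay below the others, between 2577.9 and 2833.8. Ndufa5 in tumour 2, at 1916.9, stood above the others, between 1290.0 and 1479.4, and Uqcrc2, a core subunit of complex III, in tumour 6, at 4249.4, stood above the others, between 1854.3 and 2460.5.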

How the results depend on the processing

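No paired analysis was possible because the replicate numbers follow only the order of deposition. Members called at an adjusted p under 0.05 numbered 0 in each comparison with all arrays and under every alternative run, except tumours minus IkL/L thymocytes without tumour 6, so that leaving out arrays in turn gave 0 to 1 calls there; the called gene was Uqcr11 (0.97, adjusted p = 0.0385). Floor, pseudocount, quantile normalization, filters and choice of probe set moved no median of a complex beyond the spread between replicates. Tumours and IkL/L arrays never shared a fluidics run, and the block fit links them only through wild-type arrays; within chip lot 1, tumour 6 is the only tumour. The batch fits leave few arrays per group, and the cause of each shift below was not tested.

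For tumours minus wild-type thymocytes, the median of complex II was 0.016 with fluidics module as a block or in module 2 alone, and 0.45 with fluidics run as a block or in run 1 alone. Complex III gave 0.53 with hybridization day as a block or on day 1 alone, and 0.069 with module as a block or in module 2. Complex IV gave 0.24 with chip lot as a block and 0.26 on lot 1 alone. Complex V gave 0.15 with module as a block, 0.19 in module 2, 0.55 with run as a block and 0.54 in run 1. The assembly factors gave 0.62 with run as a block and 0.66 in run 1, and all members 0.067 with module as a block and 0.064 in module 2.

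For tumours minus IkL/L thymocytes, complex I gave 0.27 with lot as a block or on lot 1 alone and 0.21 in module 1. Leaving out arrays in turn moved complex I between 0.25 (without IkL/L array 1) and 0.47. Complex II gave 0.67 with run as a block, complex III 0.64 with lot as a block or on lot 1, and complex IV 0.41 in module 4. Complex V gave 0.53 with run as a block and 0.46 on lot 1 or day 1 alone. The assembly factors gave 0.67 with run as a block, -0.012 in module 1 and 0.58 in module 4. For IkL/L minus wild-type thymocytes, module as a block gave -0.46 for complex II, -0.49 for complex IV, -0.28 for complex V and -0.35 for all members.

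Single genes near no difference changed sign. For tumours minus wild-type thymocytes, Sdha was -0.13 with lot as a block or on lot 1, -0.046 with module as a block or in module 2, and between -0.0096 and 0.16 when arrays were left out in turn. Cox4i1 was 0.26 with lot as a block or on lot 1, 0.065 with day as a block or on day 1, and 0.081 with run as a block or in run 1. Cox8b was 0.23 with lot as a block or on lot 1, and Atp5g1 was -0.27 without wild-type array 1 and up to 0.61 with other arrays left out. For tumours minus IkL/L thymocytes, Cox8c was 0.17 with lot as a block or on lot 1 and 0.53 with run as a block, and with run as a block Cox6a2 was -1.02 and Cox7a2 -0.24. For IkL/L minus wild-type thymocytes, Cox6b2 ranged from -0.67 to 0.13 when arrays were left out in turn. Uqcr11 in tumours minus IkL/L thymocytes ranged from 0.76 to 0.97.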
